A study of Mus musculus with 16 samples.

Results

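The lung epithelial transcription factors followed here are the 10 genes Nkx2-1, Cebpa, Foxa1, Foxa2, Gata6, Foxp1, Foxp2, Sox9, Elf5 and Klf5. They were found by their annotated symbol among the features of the array, and they make up 10 of the 20725 genes and 35 of the 31439 named features measured. A gene with several features is represented by the brightest of them, judged by its mean in the 16 libraries, with the others given beside it. Nkx2-1 and Sox9 had 10 features each, Foxp1 had 5, Foxp2 had 3, Foxa2 had 2, and the other 5 genes had 1 each.

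RNA labelled as coming from alveolar epithelial type II (AT2) cells, the surfactant-producing cells of the alveolus, was measured on 16 single-colour arrays. All mice were 3-day-old pups (P3). The sample titles give 2 libraries from Fgf10+/- pups in hyperoxia, 6 from wild-type pups in hyperoxia, 4 from Fgf10+/- pups in normoxia and 4 from wild-type pups in normoxia, whereas the design text gives 4 for each group. The titles were followed. Hyperoxia pups breathed 85% oxygen in a chamber over postnatal days 0 to 3, and normoxia pups did not. Fgf10+/- pups carry 1 functional copy of the gene for FGF10, a growth factor secreted by lung mesenchyme. The sources used here give neither the strain, nor the way the AT2 cells were isolated, nor whether each library came from its own animal, so p-values measure only the spread between these libraries.

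As background, lung epithelial identity rests on a small network of transcription factors that is switched on in the foregut endoderm and kept into adult life. Nkx2-1 marks the lung field and binds the promoters of surfactant genes together with the forkhead factors Foxa1 and Foxa2 and the zinc finger factor Gata6. Cebpa and Klf5 act late, when mouse AT2 cells mature around birth. Foxp1 and Foxp2 are forkhead repressors, and Sox9 and the ETS factor Elf5 belong to the distal tips of the growing airways, where epithelial progenitors lie next to FGF10.

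Levels are deposited log2 intensities, so a difference of 1 is a 2-fold change on the array scale, and levels of different genes cannot be set against each other. Differences were fitted with limma over all 20725 genes, and a gene was called at a Benjamini-Hochberg adjusted p under 0.05. As a check of the labelled cell type, all 8 AT2 markers lay above the median of the table (4.34) in every group, with a mean over the list of 11.84 to 12.97 in Fgf10+/- hyperoxia, 12.13 to 13.03 in wild-type hyperoxia, 12.12 to 12.98 in Fgf10+/- normoxia and 12.61 to 12.99 in wild-type normoxia. All 8 AT1, 6 club cell, 6 ciliated cell, 8 endothelial, 7 fibroblast and 7 smooth muscle markers averaged above that median in every group as well, so this check shows AT2 genes to be present and does not set AT2 cells apart from other lung cells. Some markers of other cells moved with oxygen. In hyperoxia averaged over genotypes, 3 of 8 endothelial and 2 of 7 smooth muscle markers rose, against 4.97% of all genes. There 2 of 6 club cell and 2 of 10 thymocyte markers fell, against 6.14% of all genes. The Fgf10 feature was dim, with 5.07 ± 0.43 in Fgf10+/- hyperoxia, 5.13 ± 0.28 in wild-type hyperoxia, 4.42 ± 0.36 in Fgf10+/- normoxia and 4.74 ± 0.77 in wild-type normoxia (SD, n = 2, 6, 4 and 4), and gives no check of the genotype labels.

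Klf5 was the only one of the 10 factors that fell in hyperoxia, and none rose. Averaged over both genotypes its level was 2.11-fold lower. Nkx2-1, Sox9 and Cebpa had differences below 0 of 0.61 or more on the log2 scale without passing the test. Foxa1, Foxa2, Gata6 and Foxp1 differed by at most 0.20. The share of factors called, 1 of 10, lay near that of all genes, of which 11.1% were called in this comparison and 6.14% were called lower, so it is no property of the set. At an unadjusted p under 0.05 the count was 4 of 10, against 25.8% of all genes. The median difference was −0.29 over the 10 factors and −0.06 over all genes.

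**Figure D1:**
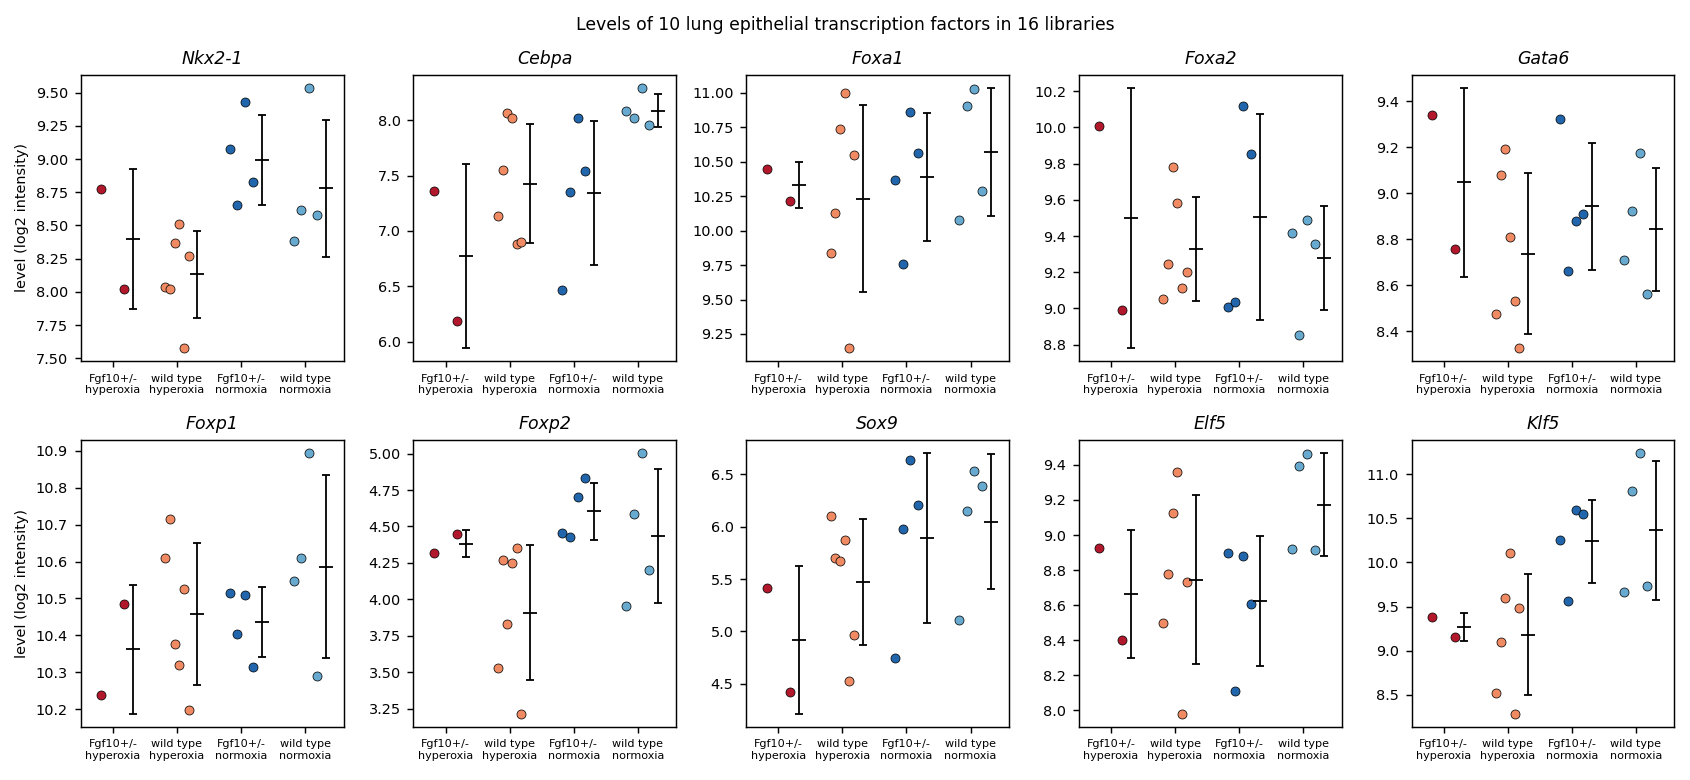
Level of each of the 10 transcription factors (log2 intensity, each panel with its own scale) in 16 libraries. Points are libraries, and the bar beside them is the group mean with its SD (n = 2 Fgf10+/- hyperoxia, 6 wild-type hyperoxia, 4 Fgf10+/- normoxia, 4 wild-type normoxia). For Klf5 the hyperoxia libraries averaged 9.20 and the normoxia libraries 10.30, while the Foxa2 and Gata6 groups overlap throughout.

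Nkx2-1, Foxa1 and Elf5 varied together from library to library, with correlations of 0.80 to 0.93 in pairs after the group means were taken off. Klf5 varied with them as well, at 0.79 to 0.95, but no promoter window matched it. The promoters of the other 3 are shown to set out what each carries before its start. RefSeq windows on GRCm38.p6 matched 6 of the 10 factors with 11 windows, and the 250 bases before the gene start are printed here, read along the strand of the gene, with matches on either strand in capitals. The motifs searched were CTCAAG for NKX2-1, TGTTTAC for forkhead factors, AGATAA for GATA factors, TTGCNNAA for C/EBP, AACAAT for SOX, AGGAAG for ETS and CACCC for KLF factors. Nkx2-1 lies at chr12:56536909-56537158 on the minus strand, Foxa1 at chr12:57546112-57546361 on the minus strand, and the first of 2 Elf5 windows at chr2:103411848-103412097 on the plus strand.
Nkx2-1: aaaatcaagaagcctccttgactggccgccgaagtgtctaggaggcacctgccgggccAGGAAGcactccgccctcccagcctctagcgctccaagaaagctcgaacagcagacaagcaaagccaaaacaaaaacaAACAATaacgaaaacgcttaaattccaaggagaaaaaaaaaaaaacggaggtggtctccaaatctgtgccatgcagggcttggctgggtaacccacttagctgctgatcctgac
Foxa1: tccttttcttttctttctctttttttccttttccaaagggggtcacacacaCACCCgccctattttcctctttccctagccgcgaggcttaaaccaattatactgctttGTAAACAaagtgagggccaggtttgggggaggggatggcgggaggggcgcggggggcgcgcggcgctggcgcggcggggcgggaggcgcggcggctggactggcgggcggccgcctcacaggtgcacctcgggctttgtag
Elf5: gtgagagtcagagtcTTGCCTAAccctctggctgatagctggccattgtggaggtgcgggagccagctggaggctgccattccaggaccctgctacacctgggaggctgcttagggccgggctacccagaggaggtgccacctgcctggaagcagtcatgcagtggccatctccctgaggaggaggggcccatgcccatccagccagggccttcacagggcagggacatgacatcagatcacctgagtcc
The Nkx2-1 window held an ETS match at −192 and a SOX match at −114 from the start. The Foxa1 window held a KLF match at −199 and a forkhead match at −141, and this Elf5 window held 1 C/EBP match at −235. Of 32851 windows of the same length, 29.5% held the ETS motif, 9.42% the SOX motif, 52.0% the KLF motif, 3.17% the forkhead motif and 9.56% the C/EBP motif, while 13.3% held the NKX2-1 motif and 9.99% the GATA motif. The matches did not overlap, and no motif searched was found in more than 1 of the 3 windows printed. This depends on the window: the other Elf5 window held 3 KLF matches and so shared the KLF motif with the Foxa1 window. A match is a string of letters and not a measured binding site.

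Nkx2-1, the homeodomain factor that marks the lung field, stood at 8.77 and 8.02 in the Fgf10+/- hyperoxia libraries. In wild-type hyperoxia its lowest, median and highest levels were 7.58, 8.16 and 8.51. The Fgf10+/- normoxia libraries had 9.08, 8.65, 9.43 and 8.82, and the wild-type normoxia libraries 8.39, 8.62, 9.54 and 8.58. Low levels were found in the wild-type hyperoxia libraries and in the Fgf10+/- hyperoxia library 2, but the highest wild-type hyperoxia library exceeded the lowest wild-type normoxia library, and the Fgf10+/- groups overlapped as well. The limma difference, hyperoxia minus normoxia averaged over genotypes, was −0.62 (SE 0.21, 95% confidence interval −1.08 to −0.17, adjusted p = 0.0726). It did not pass the test.

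The 10 Nkx2-1 features ran closely together, with pairwise correlations of 0.873 to 0.977 over the 16 libraries. All 10 gave a difference below 0 between hyperoxia and normoxia, from −0.75 to −0.56, where 52.8% of all features lay below 0. Each had an unadjusted limma p under 0.05, against 19.7% of all features, and none was called among 62911 features, the smallest adjusted p being 0.0639, against 6.48% of all features called. Features of 1 gene read the same RNA and are not replicates, so their accord speaks only for the measurement of Nkx2-1 in these libraries.

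Foxa1 and Foxa2 are forkhead pioneer factors with overlapping roles in lung branching and differentiation. Foxa1 had 10.45 and 10.21 in Fgf10+/- hyperoxia and a lowest, median and highest level of 9.15, 10.34 and 11.00 in wild-type hyperoxia, against 10.37, 9.76, 10.86 and 10.57 in Fgf10+/- normoxia and 10.08, 10.91, 11.03 and 10.28 in wild-type normoxia. The hyperoxia and normoxia libraries overlapped, with the lowest library in wild-type hyperoxia, and the difference of −0.20 (95% interval −0.78 to 0.38, adjusted p = 0.708, limma) did not pass the test. Foxa2 had 10.01 and 8.99 in Fgf10+/- hyperoxia and 9.05, 9.22 and 9.78 as lowest, median and highest in wild-type hyperoxia, against 9.01, 9.04, 10.12 and 9.85 in Fgf10+/- normoxia and 9.42, 8.85, 9.49 and 9.36 in wild-type normoxia. Its difference was 0.02 (95% interval −0.45 to 0.49, adjusted p = 0.964), and its second feature gave −0.24 (adjusted p = 0.673 over all features). Gata6, a zinc finger factor needed for distal epithelial differentiation, had 9.34 and 8.76 in Fgf10+/- hyperoxia and 8.33, 8.67 and 9.19 as lowest, median and highest in wild-type hyperoxia, against 9.32, 8.66, 8.88 and 8.91 in Fgf10+/- normoxia and 8.71, 8.92, 9.18 and 8.56 in wild-type normoxia. The groups overlapped, with a difference of −0.00 (95% interval −0.38 to 0.38, adjusted p = 0.999).

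Klf5, a Krüppel-like zinc finger factor needed for perinatal maturation of the alveolar epithelium in mice, stood at 9.38 and 9.15 in Fgf10+/- hyperoxia. In wild-type hyperoxia its lowest, median and highest levels were 8.29, 9.29 and 10.11. The Fgf10+/- normoxia libraries had 10.25, 9.57, 10.59 and 10.54, and the wild-type normoxia libraries 9.67, 10.81, 11.24 and 9.73. Both Fgf10+/- hyperoxia libraries lay below all 4 Fgf10+/- normoxia libraries, while the wild-type groups overlapped. In the order of group means wild-type hyperoxia (9.18 ± 0.69) and Fgf10+/- hyperoxia (9.27 ± 0.16) came lowest and did not differ beyond their spread, and neither did Fgf10+/- normoxia (10.24 ± 0.47) and wild-type normoxia (10.36 ± 0.79). The difference averaged over genotypes was −1.07 (SE 0.31, 95% interval −1.74 to −0.41, limma adjusted p = 0.0362).

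This call of Klf5 was close to the threshold and rests on a single feature. It was lost when any of 9 libraries was left out (both Fgf10+/- hyperoxia libraries, wild-type hyperoxia 1 and 2, Fgf10+/- normoxia 1, 3 and 4, wild-type normoxia 2 and 3), with differences of −1.13 to −0.93 and limma adjusted p of 0.0523 to 0.140, and it was kept when any of the other 7 was. Smooth muscle markers were higher in most hyperoxia libraries, with a mean over 7 genes of 7.92 to 8.04 in Fgf10+/- hyperoxia and 7.63 to 8.73 in wild-type hyperoxia, against 6.11 to 7.42 in Fgf10+/- normoxia and 6.47 to 9.59 in wild-type normoxia. With that mean as a covariate the Klf5 difference was −0.70 (adjusted p = 0.302). Thymocyte markers, in a mean over 10 genes, ran the other way, from 4.27 to 4.31 in Fgf10+/- hyperoxia and 4.01 to 4.42 in wild-type hyperoxia, against 4.25 to 6.38 in Fgf10+/- normoxia and 4.47 to 6.43 in wild-type normoxia. With this mean in the model the Klf5 difference was −1.59 (adjusted p = 0.0242). The 4 libraries highest in these markers were all normoxia libraries, and without them only 1 Fgf10+/- normoxia library is left. The Klf5 difference was then −1.36, and the call was lost. In bulk RNA, fewer cells of a type and less RNA per cell cannot be told apart.

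Cebpa, a basic leucine zipper factor needed for AT2 maturation in mice, had 7.36 and 6.19 in Fgf10+/- hyperoxia and 6.88, 7.34 and 8.07 as lowest, median and highest in wild-type hyperoxia. In normoxia the Fgf10+/- libraries had 6.47, 7.35, 8.02 and 7.54, and the wild-type libraries 8.08, 8.01, 8.29 and 7.95. Wild-type normoxia was the highest and tightest group (8.09 ± 0.15, SD, n = 4), though the highest wild-type hyperoxia library fell within it. The difference averaged over genotypes was −0.61 (SE 0.27, 95% interval −1.18 to −0.04, limma adjusted p = 0.159), which did not pass the test.

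Foxp1 and Foxp2 are forkhead repressors of the distal lung epithelium. Foxp1 had 10.24 and 10.48 in Fgf10+/- hyperoxia and 10.20, 10.45 and 10.71 as lowest, median and highest in wild-type hyperoxia, against 10.51, 10.40, 10.51 and 10.32 in Fgf10+/- normoxia and 10.55, 10.61, 10.89 and 10.29 in wild-type normoxia. All 16 libraries lay within a narrow span, and the difference was −0.10 (95% interval −0.39 to 0.19, limma adjusted p = 0.703). Its features did not run together, with pairwise correlations of −0.552 to 0.478. The feature second in brightness gave −0.40 (adjusted p = 0.215 over all features). Another feature, annotated to a cDNA clone, gave 0.72 (SE 0.23, adjusted p = 0.0752), with 6.65 ± 0.46 in hyperoxia and 6.03 ± 0.38 in normoxia (SD, n = 8 each). Which Foxp1 transcripts each feature reads was not analysed here. All 3 Foxp2 features lay near the median of the table, so Foxp2 was barely measured. Its brightest feature had 4.32 and 4.45 in Fgf10+/- hyperoxia and 3.22, 4.04 and 4.35 in wild-type hyperoxia, against 4.45, 4.42, 4.70 and 4.83 in Fgf10+/- normoxia and 3.95, 4.58, 5.01 and 4.20 in wild-type normoxia, a difference of −0.37 (adjusted p = 0.285).

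Sox9, an HMG box factor of the distal tip progenitors that is also the master factor of cartilage, was dim. Its brightest feature had 5.42 and 4.42 in Fgf10+/- hyperoxia and 4.52, 5.69 and 6.11 as lowest, median and highest in wild-type hyperoxia, against 4.75, 5.98, 6.64 and 6.21 in Fgf10+/- normoxia and 5.11, 6.15, 6.54 and 6.39 in wild-type normoxia. The groups overlapped, and the difference was −0.78 (SE 0.33, 95% interval −1.48 to −0.07, limma adjusted p = 0.148). All 10 Sox9 features gave a difference below 0, from −1.0 to −0.41. Of these, 2 were called lower when every feature was tested, with −1.0 (adjusted p = 0.0459) and −0.75 (adjusted p = 0.0305), where 2.77% of all features were called lower. Cartilage markers had a mean over 10 genes of 4.25 to 4.37 in Fgf10+/- hyperoxia and 3.95 to 4.48 in wild-type hyperoxia, against 4.53 to 4.75 in Fgf10+/- normoxia and 4.50 to 4.86 in wild-type normoxia. Of the 10 cartilage markers only Chad fell (−2.74) and only Hapln1 rose (0.99), 8 did not pass, and 6 in Fgf10+/- hyperoxia, 7 in wild-type hyperoxia and 5 in each normoxia group averaged below the median of the table. The Sox9 difference was −0.74 (adjusted p = 0.609) with the cartilage mean as a covariate and −0.23 (adjusted p = 0.771) with the smooth muscle mean. Every hyperoxia library lay below every normoxia library in the cartilage mean, so a fit with it can hardly tell oxygen from the covariate.

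Elf5, an ETS factor of the distal tips that responds to FGF signalling in the embryonic mouse lung, had 8.92 and 8.40 in Fgf10+/- hyperoxia and 7.98, 8.75 and 9.36 as lowest, median and highest in wild-type hyperoxia. In normoxia the Fgf10+/- libraries had 8.90, 8.11, 8.88 and 8.61, and the wild-type libraries 8.92, 9.39, 9.46 and 8.92. Hyperoxia and normoxia overlapped, and the difference averaged over genotypes was −0.19 (95% interval −0.65 to 0.26, limma adjusted p = 0.629).

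**Figure D2:**
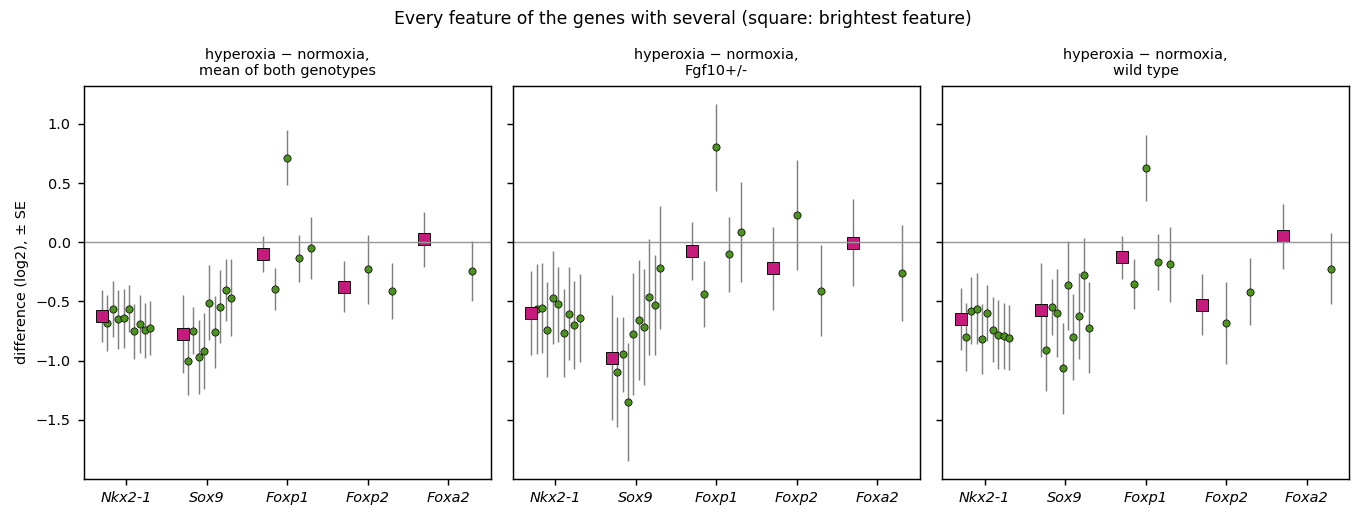
Difference between hyperoxia and normoxia (log2, ± SE of the limma fit over all features) for every feature of the 5 genes with more than 1, averaged over genotypes (left), in Fgf10+/- (middle) and in wild type (right). Squares mark the brightest feature of each gene; all 10 Nkx2-1 and all 10 Sox9 features lie below 0 in each panel, while Foxp1 features lie on both sides.

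Taken within 1 genotype, the oxygen comparison called none of the 10 factors. In Fgf10+/- libraries 0 of 10 were called by limma, against 2.45% of all genes, and 0 of 10 had an unadjusted p under 0.05, against 16.7%. The differences with the widest gap were −0.98 for Sox9 (adjusted p = 0.38), −0.97 for Klf5 (adjusted p = 0.353), −0.60 for Nkx2-1 (adjusted p = 0.412) and −0.57 for Cebpa (adjusted p = 0.557). Klf5 was the 1 factor whose Fgf10+/- hyperoxia and normoxia libraries did not overlap, a separation that 13.6% of all genes showed in the same direction. In wild-type libraries 0 of 10 were called, against 3.13% of all genes, and Klf5 and Nkx2-1 had an unadjusted p under 0.05, where 18.2% of all genes did. Here Klf5 differed by −1.18 (95% interval −1.97 to −0.39, adjusted p = 0.102), Cebpa by −0.66 (adjusted p = 0.292), Nkx2-1 by −0.65 (adjusted p = 0.188) and Sox9 by −0.57 (adjusted p = 0.480). Both comparisons leaned the same way for these 4 factors.

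Genotype changed none of the factors by the test. In hyperoxia, Fgf10+/- minus wild type, 0 of 10 factors and 0 of 20725 genes were called, and no factor had an unadjusted limma p under 0.05, against 4.37% of all genes. The differences ran from −0.65 for Cebpa (95% interval −1.51 to 0.21) to 0.47 for Foxp2 (−0.19 to 1.14). In normoxia 0 of 10 were called, against 0.00965% of all genes, and none had an unadjusted p under 0.05, against 6.03%. The lowest differences were Cebpa at −0.74 (95% interval −1.49 to 0.01, limma adjusted p = 0.820) and Elf5 at −0.55 (−1.14 to 0.05, limma adjusted p = 0.848). Elf5 was the 1 factor whose normoxia groups did not overlap. Its highest Fgf10+/- library, at 8.90, lay just under its lowest wild-type library, at 8.92, and 2.04% of all genes separated this way. For Nkx2-1 the genotype difference was 0.27 in hyperoxia (95% interval −0.42 to 0.95) and 0.22 in normoxia (−0.38 to 0.81), and for Klf5 it was 0.09 (−0.92 to 1.09) and −0.13 (−0.99 to 0.74).

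The test of whether the oxygen effect differed between genotypes called 0 of 10 factors, against 0.00965% of all genes, and no factor had an unadjusted limma p under 0.05, against 4.11%. The interaction ran from −0.40 for Sox9 (95% interval −1.81 to 1.00) to 0.47 for Elf5 (−0.44 to 1.38), with 0.21 for Klf5 (−1.12 to 1.54) and 0.05 for Nkx2-1 (−0.86 to 0.96).

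**Figure D3:**
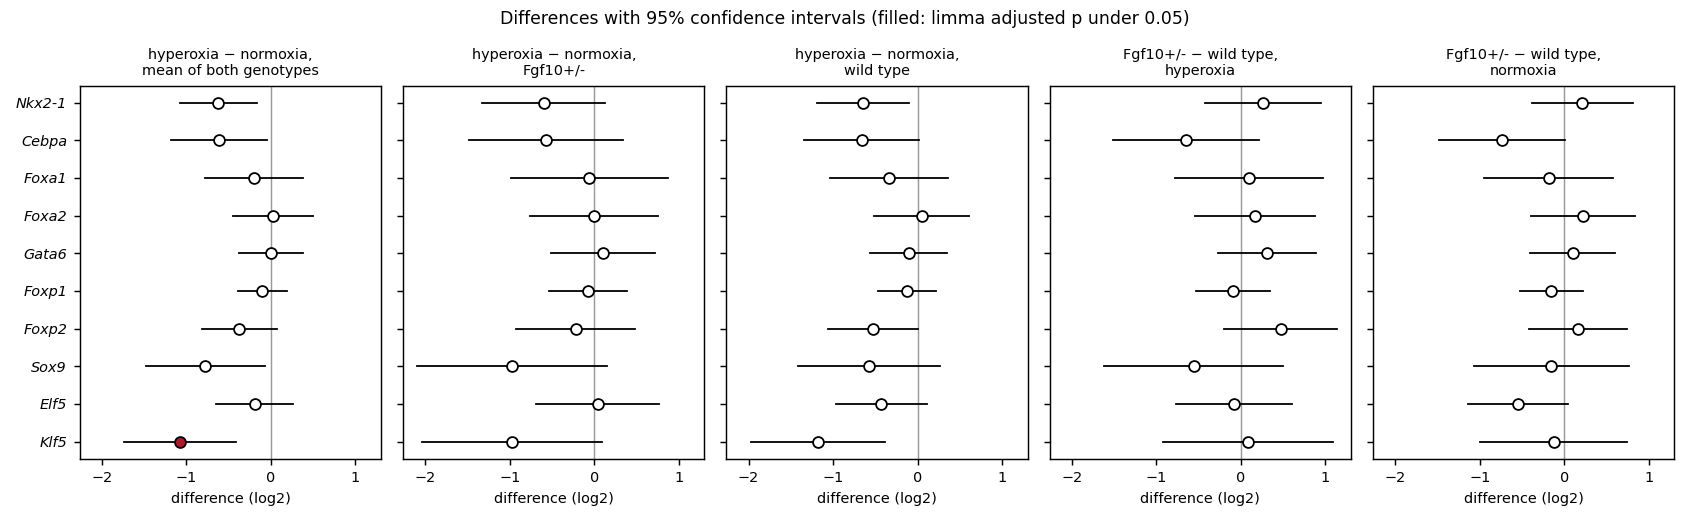
Fitted differences (log2) of the 10 factors with their 95% confidence intervals in 5 comparisons over 16 libraries. The filled point, Klf5 averaged over both genotypes at −1.07, is the 1 difference that passed the limma test at an adjusted p under 0.05.

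Within each oxygen condition several of the factors varied together with general epithelial genes. The mean of 5 general epithelial genes (Epcam, Cdh1, Krt8, Krt18 and Cldn18), a set chosen with these data in view, ran from 9.77 to 10.34 in Fgf10+/- hyperoxia and 9.03 to 10.38 in wild-type hyperoxia, against 9.61 to 10.68 in Fgf10+/- normoxia and 9.27 to 10.61 in wild-type normoxia. None of the 5 genes was called between hyperoxia and normoxia averaged over genotypes, with a median difference of −0.06. That does not show them to be equal. Their mean was 9.80 over the hyperoxia and 10.13 over the normoxia libraries, and Epcam alone had 6.28 ± 0.67 and 7.09 ± 0.50 (SD, n = 8 each). Each permutation p given for these relations, in both conditions, is that of Pearson r and not of Spearman rho. Among the 8 hyperoxia libraries, Klf5 had a Pearson r of 0.94 with this mean (Spearman rho 0.93, exact permutation p = 0.000769, adjusted p = 0.0086 over 20 relations). Foxa1 had 0.91 (rho 0.93, exact permutation p = 0.000893, adjusted 0.0086), Nkx2-1 had 0.90 (rho 0.88, exact permutation p = 0.00129, adjusted 0.0086) and Elf5 had 0.86 (rho 0.86, exact permutation p = 0.00685, adjusted 0.0228). Without the 2 libraries farthest from the median, r was 0.774 for Klf5, 0.768 for Foxa1, 0.941 for Nkx2-1 and 0.737 for Elf5. These 4 of 10 passed in hyperoxia. At an unadjusted exact permutation p under 0.05, 5 of 10 factors had a correlation above 0, against 10.3% of 20720 genes outside the epithelial mean.

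Among the 8 normoxia libraries, 3 of 10 passed, and 4 of 10 had a correlation above 0 at an unadjusted exact permutation p under 0.05, against 8.24% of 20720 genes. Foxa1 had r = 0.91 (rho 0.90, exact permutation p = 0.00188, adjusted 0.00942) and 0.947 without the 2 farthest libraries. Klf5 had 0.90 (rho 0.90, exact permutation p = 0.00355, adjusted 0.0142) and 0.866 without them, and the dim Foxp2 had 0.83 (rho 0.86, exact permutation p = 0.011, adjusted 0.0314) and 0.704. Nkx2-1 had 0.74 (rho 0.76, exact permutation p = 0.0368, adjusted 0.0919). Foxp1 stood apart in hyperoxia with r = −0.70 (rho −0.74, exact permutation p = 0.0563, adjusted 0.113), which did not pass. With the epithelial mean as a covariate the oxygen difference of Klf5 was −0.80 (limma adjusted p = 0.00262) and that of Nkx2-1 was −0.47 (adjusted p = 0.0575). When each array was instead taken relative to its epithelial mean, Klf5 differed by −0.83 (adjusted p = 0.146).

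**Figure D4:**
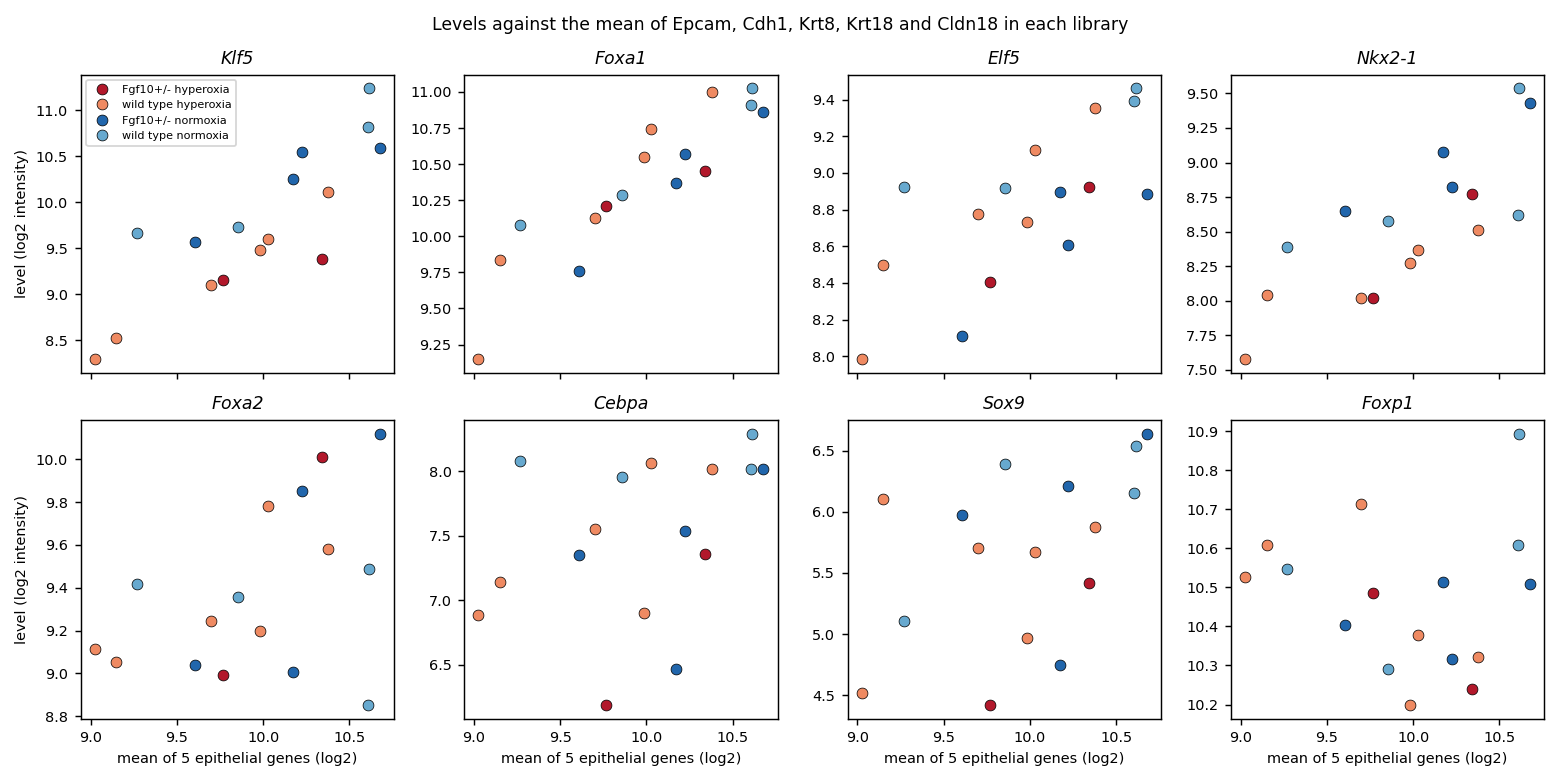
Level of 8 factors (log2 intensity) against the mean of 5 epithelial genes in the same library (log2), with 1 point for each of 16 libraries, coloured by group. Klf5 and Foxa1 rise along the axis within each condition, and at a like epithelial mean the hyperoxia points of Klf5 lie below most normoxia points.

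Deviations from the group means showed which factors moved together from library to library. Foxa1 and Klf5 correlated at 0.95, Foxa1 and Elf5 at 0.93, Elf5 and Klf5 at 0.88, Nkx2-1 and Elf5 at 0.82, Nkx2-1 and Foxa1 at 0.80, and Nkx2-1 and Klf5 at 0.79 over 16 libraries. Cebpa went with Foxa2 (0.83) and Sox9 (0.73). Foxp1 correlated at −0.25 to 0.52 with the others. Of the promoter windows of Nkx2-1, Foxa1 and Elf5, that of Foxa1 and the Elf5 window not printed both held the KLF motif. These correlations are a description, since the points share library, array and cell makeup.

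**Figure D5:**
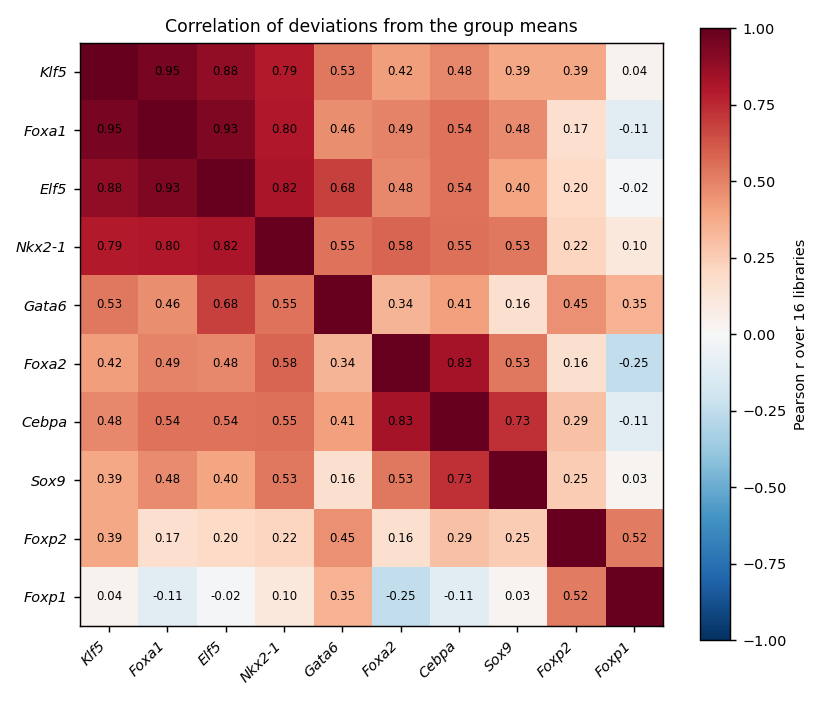
Pearson correlation between each pair of factors over 16 libraries, after the mean of its group was taken from each value. Foxa1, Klf5, Elf5 and Nkx2-1 form a block with values of 0.79 to 0.95, and Foxp1 lies near 0 with most factors.

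The genes most like each factor over the 16 libraries were searched among those with a mean of at least 6, with predicted and clone-named genes left out. For Klf5 they were Cldn3 (r = 0.963), a tight junction claudin, Foxp4 (0.951), the forkhead relative of Foxp1 and Foxp2, and Gpd1 (0.949). For Foxa1 they were Klf6 (0.953), Kyat1 (0.939) and Tmem30b (0.929), and for Nkx2-1 they were Igf1r (0.921), Inava (0.921) and Lrrc46 (0.919). Elf5 was most like Myh7 (0.936), Atf3 (0.881) and Foxa1 (0.872), Cebpa most like Scgb1c1 (0.899), Foxa2 most like Pheta1 (0.884), Gata6 most like Lrrc1 (0.870), Foxp2 most like Cd99 (0.851), Foxp1 most like Gja4 (0.813) and Sox9 most like Yipf2 (0.800). The points share library and cell makeup here too.

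Several relatives of the factors from the same protein families changed with oxygen. Of 19 relatives, 6 fell in hyperoxia averaged over genotypes, 1 rose and 12 did not pass, with a median of −0.43 against −0.06 over all genes. Of all genes, 6.14% were called lower and 4.97% higher. Foxp4, which acts with Foxp1 in the airway epithelium of mice, averaged 9.19 ± 0.24 in Fgf10+/- hyperoxia and 9.25 ± 0.38 in wild-type hyperoxia, against 10.24 ± 0.21 in Fgf10+/- normoxia and 10.22 ± 0.56 in wild-type normoxia. It fell by 1.01 (SE 0.21, limma adjusted p = 0.0055) and remained called in 16 of 16 fits that left out 1 library. Its second feature gave −0.96. Ehf, an epithelial ETS factor related to Elf5, averaged 5.68 ± 0.24 in Fgf10+/- hyperoxia and 6.25 ± 0.99 in wild-type hyperoxia, against 8.24 ± 0.67 in Fgf10+/- normoxia and 7.48 ± 0.74 in wild-type normoxia. It fell by 1.89 (SE 0.39, adjusted p = 0.0055), also in 16 of 16 such fits. Within 1 genotype, Foxp4 fell in wild type (−0.97, adjusted p = 0.0454) and Ehf in Fgf10+/- (−2.56, adjusted p = 0.0422), and these calls were lost in 14 and 8 of 16 fits that left out 1 library, with differences of −1.15 to −0.73 for Foxp4 and −2.88 to −2.39 for Ehf.

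Sox4, an HMG box relative of Sox9, averaged 10.31 ± 0.13 in Fgf10+/- hyperoxia and 10.51 ± 0.22 in wild-type hyperoxia, against 10.92 ± 0.09 in Fgf10+/- normoxia and 11.02 ± 0.24 in wild-type normoxia. It fell by 0.56 (SE 0.14, limma adjusted p = 0.0157), a call lost without the Fgf10+/- hyperoxia library 2 (−0.51, adjusted p = 0.0904). The Sox4 call was also lost with arrays centred on their median (−0.45, adjusted p = 0.0508) and with the replicate block (−0.49, adjusted p = 0.0645). It was lost with the smooth muscle mean (−0.60, adjusted p = 0.0590) or the cartilage mean (−0.42, adjusted p = 0.457) in the model. Relative to the epithelial mean it was lost too (−0.31, adjusted p = 0.786). Without the 4 libraries highest in thymocyte markers, which leaves 1 Fgf10+/- normoxia library, Sox4 differed by −0.65 and was not called. The other relatives that passed, named after their values were seen, were Gata5 (−0.74), Klf2 (−0.58) and Cebpb (−0.42), which fell with adjusted p of 0.0377 to 0.0473, and Nkx2-5, a heart homeodomain factor, which rose by 1.01 (adjusted p = 0.0317). Each of these 4 calls was lost without either Fgf10+/- hyperoxia library, and the calls of Gata5 and Klf2 were lost in 13, that of Cebpb in 12 and that of Nkx2-5 in 4 of 16 fits that left out 1 library. With the cartilage or the smooth muscle marker mean as a covariate Foxp4 differed by −0.65 and −0.75, and Ehf by −0.70 and −1.40, with adjusted p of 0.0837 or more. Without the 4 libraries highest in thymocyte markers, which leaves 1 Fgf10+/- normoxia library, Foxp4 differed by −1.17 and Ehf by −2.11. Relative to the epithelial mean Foxp4 differed by −0.77 (adjusted p = 0.199). These calls were lost there too.

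Of 19 other lung epithelial transcription factors and cofactors, none rose (median −0.18) and 1 fell, near the share of all genes called lower, 6.14%. It was Zfpm1, a cofactor of GATA factors, at 7.89 ± 0.20 in Fgf10+/- hyperoxia and 8.02 ± 0.20 in wild-type hyperoxia, against 8.66 ± 0.30 in Fgf10+/- normoxia and 8.71 ± 0.29 in wild-type normoxia, a difference of −0.73 (SE 0.16, limma adjusted p = 0.00723) that was no longer called without the Fgf10+/- hyperoxia library 1 (−0.66, adjusted p = 0.0561). Of 9 distal tip progenitor genes, none rose (median −0.01) and 1 fell, against 6.14% of all genes. This was Id2, an inhibitor of helix-loop-helix factors, at 9.97 ± 0.49 in Fgf10+/- hyperoxia and 10.27 ± 0.40 in wild-type hyperoxia, against 10.86 ± 0.32 in Fgf10+/- normoxia and 11.00 ± 0.10 in wild-type normoxia. Its difference was −0.81 (SE 0.19, adjusted p = 0.0114) and −0.64 without the Fgf10+/- hyperoxia library 2 (adjusted p = 0.101). With the thymocyte mean in the model Zfpm1 differed by −0.44 (adjusted p = 0.158), and with the smooth muscle mean Id2 differed by −0.82 (adjusted p = 0.0609). Both calls were also lost with the cartilage mean in the model (Zfpm1 −0.68 and Id2 −0.47) and relative to the epithelial mean (−0.49 and −0.56). The Id2 call was lost with the replicate block (−0.67). Without the 4 libraries highest in thymocyte markers, which leaves 1 Fgf10+/- normoxia library, Zfpm1 differed by −0.49, Id2 by −1.03, and both calls were lost.

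A list of 12 surfactant, lamellar body and other AT2 genes had no gene that passed the test in any of the 6 comparisons. Which of the factors regulate each of them was not analysed here. Of these 12 genes, 0 were called by limma in hyperoxia averaged over genotypes, against 11.1% of all genes. At an unadjusted limma p under 0.05 there were 3, near the share of 25.8% of all genes. The median was −0.30, against −0.06 over all genes, with 9 genes below 0 and 3 above. Sftpd, which encodes surfactant protein D, differed by −0.28 (adjusted p = 0.602), with 14.44 ± 0.33 in Fgf10+/- hyperoxia and 14.49 ± 0.44 in wild-type hyperoxia, against 14.86 ± 0.55 in Fgf10+/- normoxia and 14.63 ± 0.85 in wild-type normoxia. The second, dimmer Sftpd feature gave −0.66. Sftpb, which encodes surfactant protein B, went the other way, with 14.04 ± 0.38 in hyperoxia and 13.71 ± 0.37 in normoxia (SD, n = 8 each). Sftpc, which encodes surfactant protein C, read 15.95 to 15.98 in all 16 libraries, at the top of the scale, so a change in it could not be measured.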

How the data were processed

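Per the labels, total RNA was labelled with Cy3 and hybridised to single-colour Agilent arrays. The authors deposited log2 intensities, a unit read from their range (−0.40 to 15.98). After sorting, no 2 of the 16 arrays were further apart than 0.20 at any rank. The software, the background correction and the normalization are not given in the sources, and no slide or detection flag was used here. Of 62976 features, 65 were dropped for a missing value. Symbols came from the platform annotation and were updated through RefSeq (GRCm38.p6): 29036 features by accession, 2075 by symbol, 349 by synonym, and 5 kept the listed name. Each of 20725 genes was represented by its brightest feature. Group means were fitted with limma 3.58.1 in R 4.3.3 on all 16 samples, with Benjamini-Hochberg adjustment over all genes, and the fit was tested on simulated data. The number of arrays limits the precision.

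Named genes were the 10 factors with every feature, up to 3 called members of each gene list (if none, its 2 brightest genes), and the 3 genes most like each factor. The members and lists were chosen with earlier results of these data known. Lists covered surfactant, lamellar body and other AT2 genes, family relatives, other lung epithelial factors, distal tip genes and airway factors. Marker lists covered AT2, AT1, club, ciliated, endothelial, smooth muscle, cartilage, macrophage, neutrophil, thymocyte, B and erythroid cells and fibroblasts. Markers not given in the report were called in 1 of 7 fibroblast, 1 of 8 macrophage and 1 of 6 neutrophil genes (rose) and in 0 of 8 AT2, 0 of 8 AT1, 0 of 6 ciliated, 0 of 5 B cell and 0 of 5 erythroid genes, for hyperoxia averaged over genotypes. In that comparison 11.1% of all genes were called. Alternatives covered scaling, feature choice, filters, weights, a replicate block, marker covariates and single libraries left out. The epithelial and cartilage alternatives were chosen after seeing the data.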

Additional observations from a re-analysis of the deposited data

How the results depend on the processing

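The count of factors called in hyperoxia averaged over genotypes, 1 as fitted, was 0 with arrays centred on their median, with a replicate block, with the smooth muscle or the cartilage marker mean as a covariate, without the 4 libraries highest in thymocyte markers and relative to the epithelial mean, and 2 (Klf5 and Nkx2-1) among genes with a mean of at least 6, where 8 factors were tested, and with an intensity trend and robust prior. Leaving out 1 library gave 0 to 1. Klf5 differed by −0.97 (adjusted p = 0.0525) after centring, which shifted all differences by 0.105, and by −0.47 (adjusted p = 0.718) with the cartilage mean. The cause of these changes was not tested. The cartilage mean was lower in every hyperoxia library (3.95 to 4.48) than in any normoxia library (4.50 to 4.86). Fits with it can hardly tell oxygen from the covariate, and 94 genes were called in all, against 2302. The 4 libraries highest in thymocyte markers were all normoxia, and without them 1 Fgf10+/- normoxia library was left. Fewer libraries and lower thymocyte markers cannot be told apart there. Klf5 stayed below 0 under all 30 alternatives, from −1.59 to −0.47. These are not separate checks of its direction. The other feature choices, the filter and the trend left its difference at −1.07, and fits without 1 library share the remaining libraries. In wild type the count was 0 as fitted and 1 (Klf5) with the filter at a mean of 6, with the thymocyte mean and with the epithelial mean as a covariate. Averaged over genotypes, and not within wild type, Nkx2-1 reached a limma adjusted p of 0.0333 with the filter and 0.0397 with the trend.

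Replicate numbers showed no clear pairing of the samples: deviations of same-numbered samples correlated at −0.16 to 0.24 over 18 pairs, and 4 pairs exceeded 0.1. Their mean was 0.05, against −0.01 over 74 pairs with other numbers. With groups this small the check cannot exclude a pairing. With the replicate block Klf5 differed by −0.84 (adjusted p = 0.116), and 1380 genes were called in all, against 2302. Over the 10 factors, 6 comparisons and all alternatives, 1657 of 1828 values kept their direction and side of the threshold. Of the rest, 15 lost a call, 5 gained one and 151 uncalled values turned sign, and 0 calls reversed. All 15 lost calls were of Klf5 averaged over genotypes, the 1 call as fitted, so no other value had a call to lose. A library left out of a group outside a comparison cannot change that difference either. These counts therefore do not measure how firm the Klf5 call is. No flags of dim features were at hand, so Foxp2 and Sox9 could be recognised as dim only by their values.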

Other observations

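Among 8 measured transcription factors of the airway epithelium, 3 fell and 1, Mcidas, rose by its feature in hyperoxia averaged over genotypes (median −0.94, against −0.06 over all genes, limma). Of all genes, 6.14% were called lower and 4.97% higher. Spdef, the ETS factor of goblet cells, averaged 4.74 ± 0.46 in Fgf10+/- hyperoxia and 5.53 ± 0.59 in wild-type hyperoxia, against 7.24 ± 0.62 in Fgf10+/- normoxia and 6.45 ± 0.73 in wild-type normoxia, a difference of −1.71 (adjusted p = 0.0022). Myb fell by 1.55 (adjusted p = 0.0177) and differed by −0.51 (adjusted p = 0.404) with the thymocyte mean in the model, and the call was lost without either Fgf10+/- hyperoxia library (−1.43 and −1.67). Sox2, named after its values were seen, fell by 0.96 (adjusted p = 0.0455), a call lost in 10 of 16 fits that left out 1 library, with differences of −1.11 to −0.83. Club cell markers, in a mean over 6 genes, lay at 9.68 to 11.58 in Fgf10+/- hyperoxia and 8.71 to 13.22 in wild-type hyperoxia, against 12.56 to 13.61 in Fgf10+/- normoxia and 10.89 to 13.24 in wild-type normoxia, and their part in these differences was not tested.

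The feature annotated to Mcidas, a coactivator of multiciliated cell genes, rose by 3.67 (SE 0.34, limma adjusted p = 1.01e-05), with 12.49 ± 0.41 in Fgf10+/- hyperoxia and 12.62 ± 0.90 in wild-type hyperoxia, against 9.08 ± 0.33 in Fgf10+/- normoxia and 8.70 ± 0.69 in wild-type normoxia (SD, n = 2, 6, 4 and 4). None of 6 ciliated cell markers was called, and all 6 differed below 0 (median −0.54). Over the 16 libraries the Mcidas feature correlated at 0.999 with the Fgf23 feature, at 0.998 with that of Snap25 and at 0.983 with that of Klra1. Whether it measures Mcidas RNA was not tested, so the rise is that of the feature and may not be that of the gene.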
